A study of Danio rerio with 16 samples.

Results

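LAMB2 (ENSDARG00000002084) encodes the laminin beta 2 chain and NID2 (ENSDARG00000075707) encodes a nidogen 2, and both are parts of the basement membrane. They are 2 of the 31388 gene IDs measured in sorted cells of the zebrafish heart. They were chosen by ID because earlier results of these data had shown both to be higher in mCherry-positive cells after injury. Their values in that comparison, and in the others that use mCherry-positive cells at 7 days post injury (7 dpi), are therefore given as a description with no test. Only citrine-positive against double-negative cells was tested for them. That comparison sets no mCherry-positive library against another, but its main fit takes the spread from all 16 libraries, so the value from the 2 sorts alone is given beside it.

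The basement membrane is the thin sheet of matrix beneath endothelial and epithelial cells and around muscle cells. Laminins are trimers of 1 alpha, 1 beta and 1 gamma chain that polymerize at the cell surface, where integrins and dystroglycan bind them. Nidogens bind the laminin gamma 1 chain and collagen IV and so join the laminin and collagen networks. In mammals the laminin beta 2 chain is known from the neuromuscular junction, the kidney glomerulus and vessel walls.

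All fish were adult double transgenics, postnb:citrine;kdrl:mCherry, aged 3 to 9 months. The kdrl reporter labels the endothelium and endocardium. The postnb reporter uses regulatory sequence of a periostin gene, which activated fibroblasts express. Hearts were cryoinjured, which means that a part of the ventricle was killed by cold, or left uninjured. Apexes of 3 to 5 hearts per sample were pooled, trypsinized and sorted by fluorescence. Citrine-positive cells at 7 dpi gave 3 libraries, mCherry-positive cells at 7 dpi gave 4, cells negative for both reporters at 7 dpi (double-negative) gave 6, and mCherry-positive cells of uninjured hearts gave 3. The double-negative sort mixes all cells without a reporter, so it has no single cell type. Uninjured citrine-positive or double-negative cells were not analysed here. Each library carries a pool number, read here as the pool of hearts, and uninjured libraries came from pools 2 to 4 while those at 7 dpi came from pools 5 to 10. Injury and pool therefore cannot be told apart in the comparison of mCherry-positive cells.

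Values are TPM, in which reads per transcript are corrected for length and scaled to a sum of 1000000 in each library. TPM keeps no read depth, so the depth of these libraries is unknown and no counting interval is given. Between 12111 and 16854 IDs reached 1 TPM per library. A pair of uncharacterized IDs took between 25.7% and 35.8% of the TPM in pools 9 and 10 (5 libraries). In the remaining 11 libraries their share did not pass 2.09%. The 20 most abundant IDs of each library held 60.6% to 66.5% of its TPM in pools 9 and 10. They held 29.4% to 66.9% in the other 11 libraries, with the most in citrine-positive pool 7. The endothelial gene kdrl lay at 0.74 to 1.73 TPM in citrine-positive libraries, 159.45 to 266.03 TPM in mCherry-positive libraries at 7 dpi, 23.96 to 57.02 TPM in double-negative libraries and 282.78 to 467.15 TPM in uninjured mCherry-positive libraries. The 19 cardiomyocyte marker IDs summed to 6756 TPM in citrine-positive pool 7, against 447.2 and 552.3 TPM in citrine-positive pools 9 and 10. Fits without pools 9 and 10 keep pool 7 as their only citrine-positive library. The part of cardiomyocyte RNA in its values was not tested. In sorted pools, fewer cells of a type and less RNA per cell cannot be told apart.

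LAMB2 was highest in citrine-positive cells and close to 0 in mCherry-positive cells of uninjured hearts. It had 29.63, 44.61 and 56.41 TPM in the citrine-positive libraries of pools 7, 9 and 10. In mCherry-positive cells at 7 dpi it had 6.49, 5.34, 3.29 and 20.3 TPM in pools 5, 6, 7 and 9. Pool 9 stood above the other 3. The 6 double-negative libraries had 14.2 to 32.27 TPM, with a median of 20.2. In uninjured mCherry-positive cells LAMB2 was listed at 0 in pool 2 and had 1.49 TPM in pool 3 and 0.03 TPM in pool 4. All mCherry-positive libraries at 7 dpi were above all 3 uninjured ones, where 2.89% of all tested IDs were higher without overlap. The citrine-positive and double-negative libraries were above them too. Those differ from the uninjured libraries in sort, pool and injury at once, and no share over all tested IDs was computed for them.

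The order of the LAMB2 means was citrine-positive (43.6 ± 13.4 TPM, SD, n = 3), double-negative (20.8 ± 6.72 TPM, n = 6), mCherry-positive at 7 dpi (8.86 ± 7.74 TPM, n = 4) and mCherry-positive uninjured. Neighbours in this order overlapped except at its lower end. The lowest citrine-positive library, pool 7, was under the highest double-negative library, pool 6, and mCherry-positive pool 9 lay among the double-negative libraries. Citrine-positive and mCherry-positive libraries at 7 dpi did not overlap.

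NID2 had nearly the same mean in mCherry-positive cells at 7 dpi as in citrine-positive cells, and their libraries overlapped. It had 40.7, 86.61 and 62.36 TPM in the citrine-positive libraries of pools 7, 9 and 10. In mCherry-positive cells at 7 dpi it had 24.22, 108.29, 86.55 and 46.58 TPM in pools 5, 6, 7 and 9. These 4 libraries spread more widely than those of any other sort. The 6 double-negative libraries had 27.29 to 49.53 TPM, with a median of 35.4. In uninjured mCherry-positive cells NID2 had 8.06, 7.06 and 9.09 TPM in pools 2, 3 and 4. NID2 was thus present in every uninjured library, which LAMB2 was not.

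The NID2 means were 63.2 ± 23.0 TPM in citrine-positive cells, 66.4 ± 38.0 TPM in mCherry-positive cells at 7 dpi, 35.7 ± 7.56 TPM in double-negative cells and 8.07 ± 1.02 TPM in uninjured mCherry-positive cells (SD, n = 3, 4, 6 and 3). The 3 sorts at 7 dpi overlapped in every pairing, and none of them overlapped with the uninjured libraries. Citrine-positive and double-negative libraries differ from the uninjured mCherry-positive ones in sort, pool and injury at once, which cannot be told apart. For these sorts against uninjured cells no share over all tested IDs was computed.

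**Figure D1:**
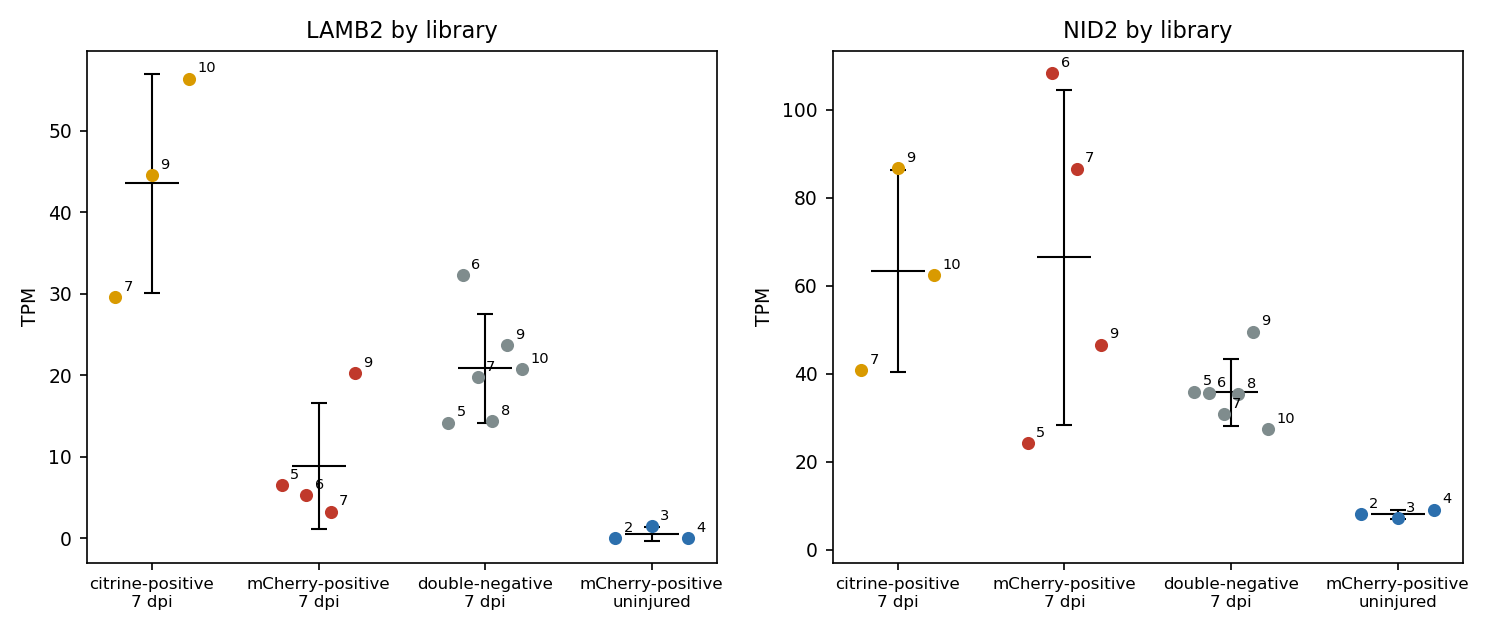
LAMB2 (left) and NID2 (right) in TPM in each library, with the sort on the horizontal axis, the pool number beside each point, and bars for the mean and SD. LAMB2 is at 29.63 TPM or more in all 3 citrine-positive libraries and at 1.49 TPM or less in the uninjured ones, while NID2 has its highest value, 108.29 TPM, in mCherry-positive pool 6.

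The injury comparison set mCherry-positive cells at 7 dpi against those of uninjured hearts. LAMB2 differed by 2.57 ± 0.52 and NID2 by 2.69 ± 0.43 on the log2(TPM + 1) scale (fold change ± SE), and in both genes the 2 groups did not overlap. Of all 19039 IDs tested, 2.89% were higher without overlap, and nothing is read from the 2 genes against it, since they were chosen on this comparison. The size of the LAMB2 fold depends on the pseudocount, because its uninjured values are near 0: it was 4.68 ± 0.79 with a pseudocount of 0.1 and 1.20 ± 0.36 with a pseudocount of 5. The NID2 fold was 2.81 ± 0.44 and 2.27 ± 0.39 under the same settings. Without pool 9 at 7 dpi the LAMB2 fold was 2.10 ± 0.47 and the NID2 fold 2.79 ± 0.47.

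The 5 tested relatives of the 2 genes had no call after injury, where 0.693% of all tested IDs were called, so a count of 0 is near that background and does not set the 2 genes apart. The other laminin beta chain IDs with appreciable levels were LAMB1 (ENSDARG00000101209), LAMB1 (ENSDARG00000045524) and lamb2l. LAMB1 ENSDARG00000101209 averaged 47.4 ± 20.5 TPM in mCherry-positive cells at 7 dpi and 92.2 ± 47.4 TPM in uninjured ones, a log2 fold change of -0.91 ± 0.43 that was not called (limma adjusted p = 0.432). LAMB1 ENSDARG00000045524 averaged 37.4 ± 14.1 TPM at 7 dpi and 24.3 ± 6.69 TPM in uninjured cells (0.57 ± 0.40, adjusted p = 0.629). The gene lamb2l, which lies next to lamb2 in the RefSeq annotation of GRCz12tu, averaged 3.73 ± 2.88 TPM at 7 dpi and 4.28 ± 2.97 TPM in uninjured cells (-0.19 ± 0.56, adjusted p = 0.947). The IDs lamb3 and lamb4 averaged 0.0275 and 1.11 TPM at 7 dpi, against 0.143 and 0.457 TPM in uninjured cells.

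Among the nidogens, NID1 (ENSDARG00000068710) averaged 32.0 ± 7.17 TPM in mCherry-positive cells at 7 dpi and 59.1 ± 3.83 TPM in uninjured ones. Its groups did not overlap, in the direction opposite to NID2, but the difference of -0.88 ± 0.35 was not called (adjusted p = 0.318). Of all tested IDs, 4.03% were lower without overlap. NID1 (ENSDARG00000103129) had 26.7 ± 8.61 TPM at 7 dpi and 17.8 ± 3.35 TPM in uninjured cells (0.51 ± 0.44, adjusted p = 0.708). The other nidogen 2 gene, nid2b, was listed at 0 in all 3 uninjured libraries and had 0.15 TPM in pool 7 and 0 in the other 3 mCherry-positive libraries at 7 dpi.

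The make-up of each family differed accordingly. LAMB2 held 4.38%, 5.45%, 4.81% and 25.6% of all laminin beta TPM in mCherry-positive pools 5, 6, 7 and 9 at 7 dpi, against 0%, 1.26% and 0.0446% in uninjured pools 2, 3 and 4. The share in pool 9 was close to the shares in citrine-positive libraries, 20.9% to 25.6%, and in double-negative libraries, 21.2% to 24.4%. NID2 held 29.8%, 63.9%, 59.2% and 44.9% of nidogen TPM in mCherry-positive pools 5, 6, 7 and 9 at 7 dpi, against 9.55%, 8.34% and 10.6% in uninjured pools 2, 3 and 4. It held 12.2% to 23.3% in citrine-positive libraries and 14.1% to 29.0% in double-negative libraries, so pools 6 and 7 of the mCherry-positive cells at 7 dpi were the libraries in which NID2 took most of the nidogen signal.

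**Figure D2:**
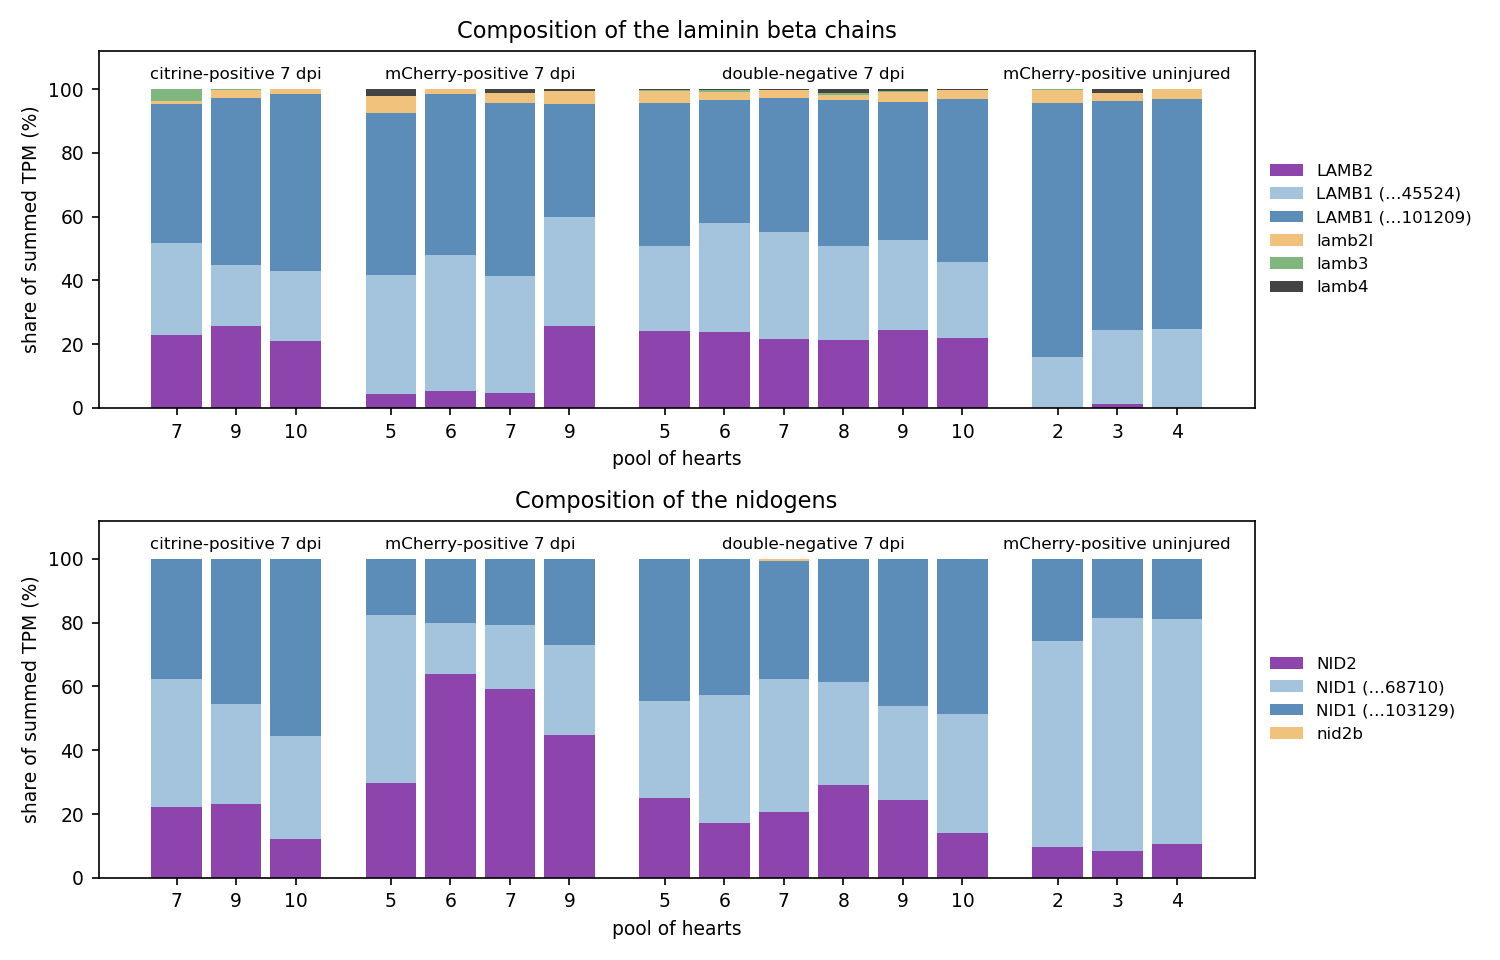
Share in percent of the summed TPM of the laminin beta chains (top) and the nidogens (bottom) held by each gene ID, with 1 bar per library grouped by sort and the pool number below. LAMB2 and NID2 are in purple: LAMB2 holds 25.6% in mCherry-positive pool 9 and at most 5.45% in the other 3 libraries of that sort, and NID2 holds 63.9% in mCherry-positive pool 6 against at most 10.6% in uninjured libraries.

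The shares in citrine-positive and double-negative cells could be tested, and neither difference passed the test. LAMB2 held 23.1 ± 2.34% of laminin beta TPM in citrine-positive cells and 22.8 ± 1.36% in double-negative cells (SD, n = 3 and 6), a difference of 0.300 percentage points (exact two-sided permutation test, p = 0.81). NID2 held 19.2 ± 6.10% of nidogen TPM in citrine-positive cells and 21.8 ± 5.48% in double-negative cells, a difference of -2.57 percentage points (exact permutation p = 0.524). The smallest p this design of 84 splits allows is 0.0119. The permutation ignored that pools 7, 9 and 10 gave libraries of both sorts. Paired within these pools, the mean difference was 0.472 percentage points for LAMB2 and -0.54 for NID2.

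Other basement membrane components were tested in the injury comparison, mCherry-positive cells at 7 dpi against those of uninjured hearts. Of 48 IDs for laminins, nidogens, collagen IV, proteoglycans and other basement membrane proteins apart from LAMB2 and NID2, 36 were tested and 0 were called by limma (Benjamini-Hochberg adjusted p below 0.05), while 6 had an unadjusted p below 0.05. Of all tested IDs 0.693% were called, 0.42% higher and 0.273% lower, and 11.5% had an unadjusted p below 0.05, so 0 calls in 36 is near the background. Their median log2 fold change was -0.09, against -0.06 over all tested IDs. Without overlap, 2 of the 36 were higher and 5 lower, beside 2.89% and 4.03% of all tested IDs. The collagen IV chains COL4A1 and COL4A2, which form the network that nidogens bind, had log2 fold changes of -0.28 ± 0.41 (adjusted p = 0.85) and -0.09 ± 0.39 (adjusted p = 0.97). The laminin gamma 1 gene lamc1, the partner that nidogens bind, had 80.53, 68.47, 40.31 and 59.63 TPM in mCherry-positive pools 5, 6, 7 and 9 at 7 dpi, against 83.72, 72.61 and 48.11 TPM in uninjured pools 2, 3 and 4. These lamc1 groups overlapped (-0.14 ± 0.41, adjusted p = 0.95).

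The ratio of LAMB2 to lamc1 TPM was 0.0806, 0.0780, 0.0816 and 0.340 in mCherry-positive pools 5, 6, 7 and 9 at 7 dpi, against 0, 0.0205 and 6.24e-04 in uninjured pools 2, 3 and 4. The first 3 of these values at 7 dpi were close together although LAMB2 itself ranged from 3.29 to 6.49 TPM. The ratio was 0.236 ± 0.067 in citrine-positive cells and 0.208 ± 0.019 in double-negative cells (SD, n = 3 and 6). The ratio of NID2 to lamc1 was 1.20 ± 0.82 in mCherry-positive cells at 7 dpi and 0.128 ± 0.053 in uninjured ones (SD, n = 4 and 3), and passed 1 in pools 6 and 7 at 7 dpi.

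Among the alpha chains, LAMA5, a chain of vessel and epithelial laminins, had 20.76, 32.37, 19.43 and 42.22 TPM in mCherry-positive pools 5, 6, 7 and 9 at 7 dpi, against 11.41, 13.99 and 10.79 TPM in uninjured pools 2, 3 and 4. The groups did not overlap, yet the difference of 1.12 ± 0.51 was not called (adjusted p = 0.405). The vascular alpha chain lama4 had a difference of -0.61 ± 0.36 (adjusted p = 0.537).

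Of 16 tested receptors of laminins and other basement membrane proteins, 1 rose, beside 0.42% of all tested IDs called higher. It was ITGA6, which encodes the alpha subunit of a laminin-binding integrin. It had 14.58, 5.41, 10.66 and 5.32 TPM in mCherry-positive pools 5, 6, 7 and 9 at 7 dpi, against 0.48, 0.38 and 0.2 TPM in uninjured pools 2, 3 and 4. The groups did not overlap (log2 fold change 2.78 ± 0.51, adjusted p = 0.0105). The call held without any 1 of the 7 libraries (highest adjusted p = 0.0435), but not in a fit of the 2 groups alone (adjusted p = 0.218), in which 4 IDs were called in all. Its paralog itga6b (ENSDARG00000069946) was not called and overlapped between the groups, with 0.24 to 21.85 TPM at 7 dpi and 0 to 3.02 TPM in uninjured cells. The integrin beta 1 gene ITGB1 (ENSDARG00000071863), 1 of several IDs of that name, overlapped between the groups, with 33.17 to 50.58 TPM at 7 dpi and 26.49 to 39.4 TPM in uninjured cells. The ITGB1 ID ENSDARG00000053232 overlapped too, with 10.32 to 19.36 TPM at 7 dpi and 1.45 to 16.16 TPM in uninjured cells. A weaker ITGB1 ID, ENSDARG00000022689, did not overlap, with 0.61 to 4.57 TPM at 7 dpi and 0 to 0.38 TPM in uninjured cells. Of the 16 receptors 4 were higher and 1 lower without overlap, beside 2.89% and 4.03% of all tested IDs. Over all 52 tested IDs of the 6 lists the median log2 fold change was 0.13, and 6 were higher and 6 lower without overlap, beside 6.92% of all tested IDs.

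Markers of other cells differed between the same libraries. The summed TPM of 12 fibroblast and epicardial marker IDs was 711, 986, 596 and 2241 in mCherry-positive pools 5, 6, 7 and 9 at 7 dpi, against 606, 659 and 479 in uninjured pools 2, 3 and 4. The highest LAMB2 value, pool 9, was in the library with the highest sum, and one POSTN ID (ENSDARG00000043806) had 407 TPM there, against 55.26 to 97.08 TPM in the other 3 libraries at 7 dpi and 108.73 to 173.06 TPM in uninjured ones. The other POSTN ID (ENSDARG00000104267) had 714.62 to 1531.61 TPM in citrine-positive libraries and 202.26 to 426.38 TPM in double-negative libraries. In mCherry-positive pools 5, 6, 7 and 9 at 7 dpi it had 0.28, 18.93, 11.66 and 36.27 TPM, against 0.19 to 0.63 TPM in uninjured ones. The epicardial transcription factor TCF21 was listed at 0 in pools 5, 6 and 9 and had 0.53 TPM in pool 7 at 7 dpi, and was at 0 in all 3 uninjured libraries. It had 20.67 to 47.75 TPM in double-negative libraries. WT1 (ENSDARG00000031420), TBX18 and LUM averaged 0.0125, 0.135 and 0.22 TPM at 7 dpi and were at 0 in all uninjured libraries. The other IDs of the list were not near 0 at 7 dpi, and each had a higher mean there than in uninjured cells. COL1A1 (ENSDARG00000035809) averaged 203 TPM at 7 dpi and 55.2 TPM in uninjured cells, COL1A2 164 and 52.9, DCN 139 and 62.6, and wt1b 8.52 and 8.02. Of the 12 IDs 0 were called, beside 0.693% of all tested IDs. The part of these cells in the LAMB2 difference was not tested, and without pool 9 the difference had the value given above.

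NID2 was not highest where those markers were highest among the mCherry-positive cells. Pools 6 and 7 had its highest values there, 108.29 and 86.55 TPM, with fibroblast and epicardial sums of 986 and 596, while pool 9 with a sum of 2241 had 46.58 TPM. Pool 5, with a sum of 711, had the lowest value of NID2, 24.22 TPM. Macrophage markers summed to 226.5 to 999 TPM in mCherry-positive cells at 7 dpi and 106 to 408 TPM in uninjured ones. Of their 18 tested IDs 1 rose, MFAP4 ENSDARG00000038681 (4.12 ± 0.52, adjusted p = 5.29e-04), beside 0.42% of all tested IDs called higher. Thrombocyte markers summed to 25.4 to 143 TPM at 7 dpi and 11.1 to 19.5 TPM in uninjured cells. Of their 5 tested IDs 1 rose, THBS1 ENSDARG00000010785 (2.37 ± 0.52, adjusted p = 0.0399), beside the same 0.42%. Without THBS1, a matrix gene that averaged 144.5 TPM in citrine-positive cells, the other 4 thrombocyte markers summed to 1.81 to 5.93 TPM at 7 dpi and 1.19 to 9.77 TPM in uninjured cells, and overlapped. The part of fibroblasts, epicardial cells or macrophages in the NID2 difference was not tested.

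**Figure D3:**
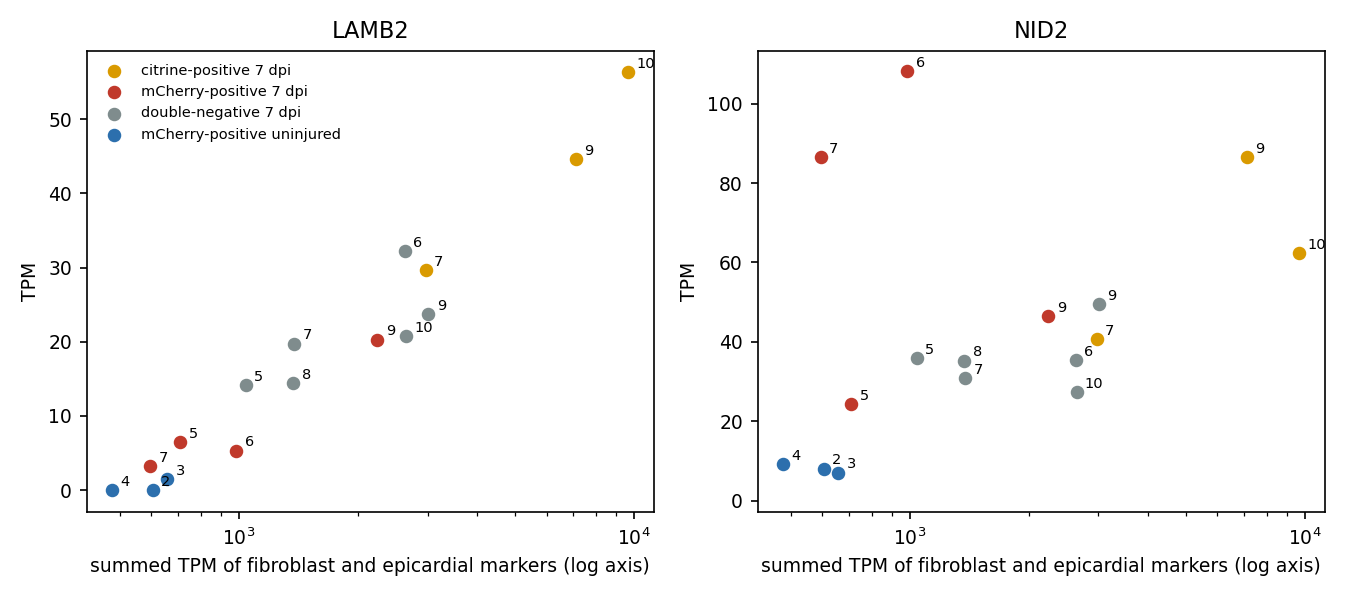
LAMB2 (left) and NID2 (right) in TPM against the summed TPM of 12 fibroblast and epicardial marker IDs (log axis), 1 point per library, coloured by sort and labelled with the pool. LAMB2 is high where the sum is high, up to 56.41 TPM at a sum of 9643. NID2 has its highest value, 108.29 TPM, in mCherry-positive pool 6 at a sum of 986. Its next values are 86.61 TPM in citrine-positive pool 9 at a sum of 7125 and 86.55 TPM in mCherry-positive pool 7 at 596.

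Citrine-positive cells, which carry the periostin reporter, were compared with the double-negative cells at 7 dpi. LAMB2 differed by 1.04 ± 0.48 on the log2(TPM + 1) scale (95% interval 0.03 to 2.04) and NID2 by 0.77 ± 0.40 (95% interval -0.07 to 1.60). With all 19039 tested IDs taken into account, neither was called (limma, adjusted p = 0.213 and 0.283, n = 3 and 6 libraries), while 9.85% of all tested IDs were. In a limma fit of the 2 sorts alone, without mCherry-positive libraries, the SE was 0.35 for LAMB2 and 0.32 for NID2 and neither was called (adjusted p = 0.0659 and 0.137). In both genes the groups overlapped, while 3.83% of all tested IDs were higher and 12.7% lower without overlap, 16.6% in all. Over 17 alternatives the adjusted p ranged from 0.0372 to 0.701 for LAMB2 and from 0.132 to 0.871 for NID2. LAMB2 passed only with median-of-ratios scaling (1.34 ± 0.41, adjusted p = 0.0372).

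Within pools the direction was the same each time. In pools 7, 9 and 10 LAMB2 in citrine-positive cells was 1.50, 1.88 and 2.72 times its level in double-negative cells of the same pool. NID2 was 1.32, 1.75 and 2.29 times as high in the same pools. With the pool as a block, over the 3 shared pools, the adjusted p was 0.103 for LAMB2 and 0.144 for NID2.

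Of 52 other basement membrane and receptor IDs tested in this comparison, 7 were higher and 1 lower in citrine-positive cells, against 1.78% higher and 8.08% lower over all tested IDs. The median log2 fold change of the list was 0.87, against -0.23 over all tested IDs. The gamma 3 chain gene lamc3 was higher, at 8.2, 60.96 and 3.6 TPM in citrine-positive pools 7, 9 and 10 against at most 0.34 TPM in double-negative libraries (3.63 ± 0.56, adjusted p = 1.97e-04). These 3 citrine-positive libraries are the only ones with 1 TPM or more of lamc3, so it passed the filter only through them. No fit without 1 of them could test lamc3, and its kept calls come from leaving out other libraries. The proteinase-inhibitor-like matrix gene paplna (2.03 ± 0.36, adjusted p = 7.19e-04) and FREM2 (ENSDARG00000102626), for a protein that anchors epithelial basement membranes (1.95 ± 0.42, adjusted p = 0.00416), were higher along with lamc3. Both paplna and FREM2 kept their calls in each of 9 fits without 1 library. The call of lamc3 was kept in 6 such fits, all of which left out a double-negative library. Without pools 9 and 10 paplna lost its call. Only citrine-positive pool 7 remained in that fit and was assumed to vary like the other groups. FREM2 was lost with the pool as a block (adjusted p = 0.0714) and with a pseudocount of 0.1 (adjusted p = 0.0845). In all, 3 of the 7 higher calls were lost with the pool as a block, the other 2 being DAG1 (adjusted p = 0.0634) and FBLN2 (adjusted p = 0.066).

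Calls for lama4 (1.21 ± 0.33, adjusted p = 0.0226), FREM1, FBLN2 and the dystroglycan gene DAG1 (1.20 ± 0.37, adjusted p = 0.0448), and the lower call of the endothelial gene mmrn2a (-1.29 ± 0.36, adjusted p = 0.0243), were each lost without citrine-positive pool 9 and without citrine-positive pool 10. The call of mmrn2a was also lost without citrine-positive pool 7. Of the double-negative pools, FREM1 and mmrn2a were lost without pool 7 only and lama4 without pool 7 or pool 8. FBLN2 was lost without pool 5 or pool 8, and DAG1 without any 1 of pools 5, 7, 8 and 9. Both LAMB1 IDs and both NID1 IDs had positive differences, between 0.69 and 1.23, with no call. Endothelial markers were lower in the citrine-positive cells, 8 of 9 IDs, as were 17 of 18 macrophage marker IDs, and 6 of 12 fibroblast and epicardial IDs were higher. Over all tested IDs 8.08% were called lower and 1.78% higher. The 12 fibroblast and epicardial IDs were not absent from the double-negative cells. They summed to 1042 to 3013 TPM there and to 2967 to 9643 TPM in citrine-positive libraries. The part of cell mixture in the differences of LAMB2 and NID2 was not tested.

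**Figure D4:**
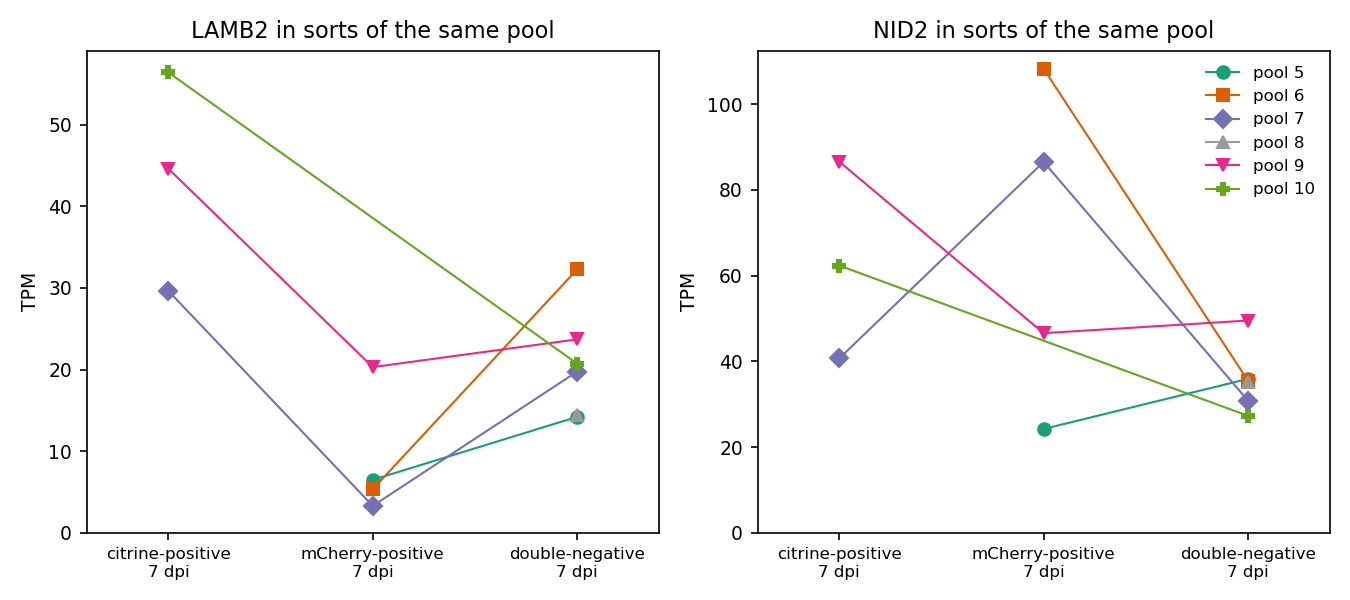
LAMB2 (left) and NID2 (right) in TPM in the 3 sorts at 7 dpi, with lines joining libraries of the same pool of hearts. In pools 7, 9 and 10 both genes are higher in citrine-positive than in double-negative cells. NID2 is highest in mCherry-positive cells in pool 7, and also in pool 6, which has no citrine-positive library.

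In mCherry-positive against double-negative cells at 7 dpi the 2 genes had differences of opposite sign. The log2 fold change was -1.37 ± 0.44 for LAMB2 and 0.69 ± 0.37 for NID2 (± SE), and both groups overlapped in each gene, while 10.2% of all tested IDs did not overlap (3.77% higher and 6.45% lower). In pools 5, 6, 7 and 9 LAMB2 in mCherry-positive cells was 0.457, 0.166, 0.167 and 0.857 times its level in double-negative cells. NID2 was 0.674, 3.05, 2.81 and 0.940 times as high in the same pools. Thus LAMB2 was lower in 4 of 4 pools, and NID2 was higher in 2 and lower in 2.

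Of the other 52 tested basement membrane and receptor IDs, 8 were higher and 4 lower in mCherry-positive cells, with 10.9% of all tested IDs called, 4.06% higher and 6.88% lower. The heparan sulphate proteoglycans AGRN (2.02 ± 0.32, adjusted p = 4.39e-04) and HSPG2 (1.36 ± 0.28, adjusted p = 0.00324) were higher, as was the endothelial matrix gene mmrn2a (2.35 ± 0.32, adjusted p = 1.23e-04). The multiplexin collagens col18a1a (-3.69 ± 0.42, adjusted p = 2.07e-05) and col18a1b (-5.44 ± 0.36, adjusted p = 3.69e-08) were lower. NID1 ENSDARG00000103129 was lower (-1.44 ± 0.37, adjusted p = 0.0147), with adjusted p = 0.0644 without mCherry-positive pool 5. The remaining laminin chains, 10 IDs, had no call in this comparison. With the pool as a block, 1332 IDs were called in place of 2083. Under that block 6 of the 8 higher calls of the list were lost, namely HMCN1 (adjusted p = 0.0518), HSPG2 (0.0724), tinagl1 (0.0904), ITGA1 (0.0977), mmrn2b (0.105) and ITGA6 (0.277), and 0 of the 4 lower calls.

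In citrine-positive against mCherry-positive cells at 7 dpi, LAMB2 differed by 2.41 ± 0.52 and did not overlap, while NID2 differed by 0.08 ± 0.43 and overlapped. Of all tested IDs, 6.36% were higher and 11.6% lower without overlap, 18% in all. In pools 7 and 9, where both sorts were sequenced, LAMB2 was 9.01 and 2.20 times as high in citrine-positive cells, and NID2 0.470 and 1.86 times as high. The NID2 fold without pools 9 and 10, with 1 citrine-positive library left, was -0.58 ± 0.70. NID2 thus had no stable direction between these sorts.

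Both NID1 IDs were higher in citrine-positive cells, ENSDARG00000068710 by 1.81 ± 0.35 (adjusted p = 0.00131) and ENSDARG00000103129 by 2.51 ± 0.44 (adjusted p = 5.34e-04), with 11.9% of all tested IDs called, 4.84% higher and 7.07% lower. ENSDARG00000068710 had 74.38 to 165.56 TPM in citrine-positive libraries and 27.2 to 42.69 TPM in mCherry-positive ones. Without pools 9 and 10, with 1 citrine-positive library left, neither passed (adjusted p = 0.217 and 0.163). The difference between NID1 and NID2 in this comparison was not itself tested.

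Among the other 52 tested IDs, 19 were higher and 6 lower in citrine-positive cells, beside 4.84% higher and 7.07% lower over all tested IDs. Of the laminin chains lamc1, lamc3, LAMA1 and LAMA5 were higher, with log2 fold changes from 1.59 to 3.60. The call of lamc3 held in each of the 4 fits without 1 library in which it was tested. Those fits left out mCherry-positive libraries only, since lamc3 passed the filter through the citrine-positive libraries alone. They cannot show whether its call depends on a citrine-positive library. The calls of lamc1, LAMA1 and LAMA5 were lost without citrine-positive pool 10, those of LAMA1 and LAMA5 also without single mCherry-positive libraries, and, with pools 9 and 10 left out, lamc1 had adjusted p = 0.508. With the pool as a block they had adjusted p = 0.0547 (lamc1), 0.27 (LAMA1) and 0.196 (LAMA5), and in the 2 groups alone 0.0579, 0.095 and 0.0907 in the same order. The lower IDs included AGRN (-2.07 ± 0.38, adjusted p = 9.32e-04) and mmrn2a (-3.64 ± 0.38, adjusted p = 2.22e-06). With the pool as a block over pools 7 and 9, 613 IDs were called in place of 2268. Of the 19 higher calls of the list 13 were tested in that fit and 9 were lost, and of the 6 lower calls 6 were tested and 2 were lost.

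**Figure D5:**
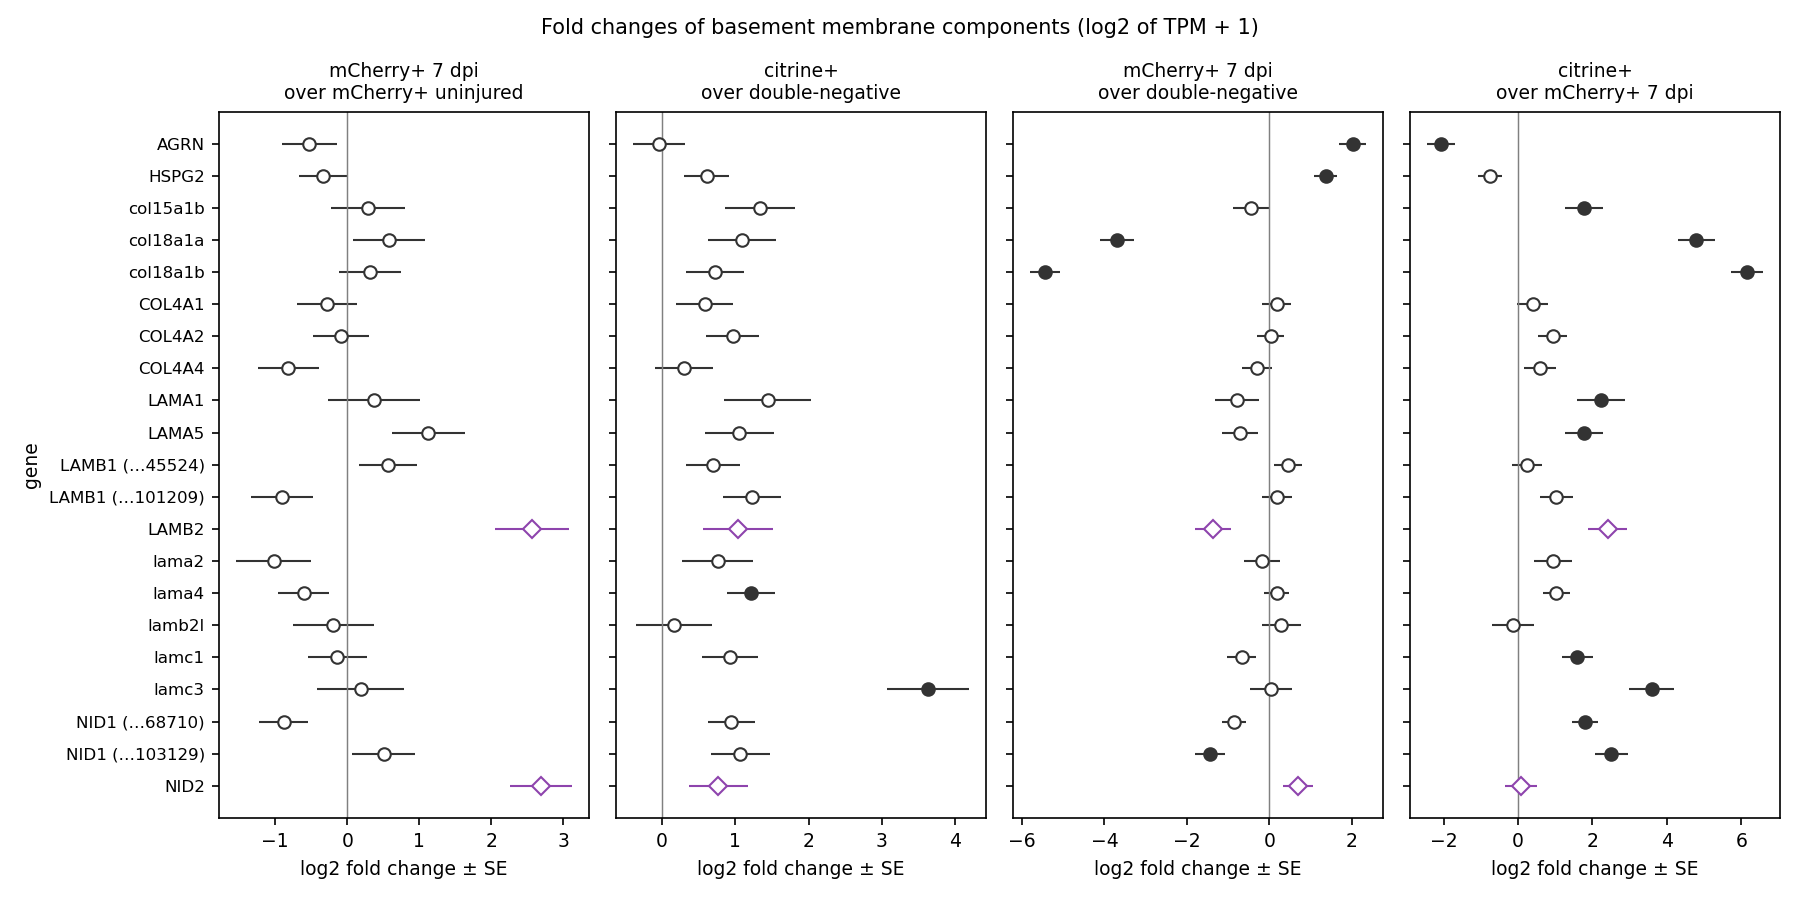
Log2 fold change with its SE for laminin, nidogen, collagen IV and proteoglycan IDs in the 4 comparisons, with scales that differ between panels. Filled circles are calls at adjusted p under 0.05, and purple diamonds are LAMB2 and NID2, for which no test was made except in the second panel. In the first panel the 2 diamonds lie at 2.57 and 2.69 and the highest circle, LAMA5, at 1.12. The 2 genes were chosen on that comparison, so nothing is read from their place above the circles.

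The genes whose pattern over all 16 libraries was most like each of the 2 genes were taken by Pearson correlation of log2(TPM + 1) among 10038 IDs that have a usable symbol and reach a mean of 5 TPM in any group. The libraries share groups and pools, so r is a description and has no p. The 8 most like LAMB2 were NCAM1 (ENSDARG00000056181, r = 0.98), FN1 (ENSDARG00000019815, 0.97), TGM2 (ENSDARG00000074094, 0.97), psd3l (0.96), LRP1 (ENSDARG00000029146, 0.96), COL5A1 (0.96), MMP14 (ENSDARG00000008388, 0.96) and LOXL2 (ENSDARG00000044074, 0.95). NCAM1, a neural cell adhesion molecule, had 21.86, 43.85 and 53.1 TPM in citrine-positive pools 7, 9 and 10, 9.18, 6.83, 2.52 and 21.36 TPM in mCherry-positive pools 5, 6, 7 and 9 at 7 dpi, and 0.3, 2.4 and 0.13 TPM in uninjured pools 2, 3 and 4. Like LAMB2, it was highest in pool 9 among the mCherry-positive libraries. It was chosen for its likeness to LAMB2 over these libraries, so this adds nothing separate. FN1 encodes fibronectin, TGM2 a transglutaminase that crosslinks matrix, and LOXL2 a lysyl oxidase.

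The 8 most like NID2 had lower correlations, from 0.81 (TRAM2) and 0.80 (SOX9, ENSDARG00000003293) to 0.77 (inavaa), with GFPT2, KLHL24 (ENSDARG00000021739), HTATIP2, PTPRU (ENSDARG00000092638) and gjc4b between. LAMB2 and NID2 correlated with each other at r = 0.66 (0.58 without pools 9 and 10). The likeness of LAMB2 to NID1 ENSDARG00000103129 was 0.83, and that of NID2 to the same ID was 0.57. Of the 8 genes most like LAMB2, 3 were among its top 8 by Spearman's rho and 4 without pools 9 and 10. For NID2, 2 were shared in each case.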

How the data were processed

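RNA of sorted cells was sequenced in 16 libraries, with 3 to 5 hearts pooled per sample, 0.2 to 0.6 ng of RNA and 60-base single reads, per the labels' protocols. The authors deposited 1 table of TPM per gene ID. RSEM 1.2.25, cutadapt and CASAVA 1.8.2 are named with the build Zv9, per the submitters' processing notes. An annotation release is not given in the sources used here. Reads that match several transcripts are split by RSEM, so near-identical paralogs are uncertain. Low input and amplification add spread. Because TPM has a fixed sum, 1 very abundant transcript depresses the rest. Symbols came from a name table, which named 25925 of 31388 IDs.

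From the table, log2(TPM + 1) was fitted with limma 3.58.1 (trend) in R 4.3.3, with 1 mean per group over all 16 libraries. A filter of 1 TPM in 3 or more libraries left 19039 IDs, and calls were made below 0.05 after Benjamini-Hochberg adjustment. The fit was tested on simulated data with 200 genes changed. Fold changes on this scale understate low genes. Tables and plots used Python 3.11.15. Single values were tested by exact permutation.

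The 2 genes and the 15 gene lists, of which 122 symbols gave 163 IDs and 7 symbols had no match, were chosen with earlier results of these data known. Named genes were the 2 genes, their families, up to 5 called IDs per basement membrane list and comparison, the 8 IDs most alike each gene, marker sums and reporter genes. Not every gene taken by the list part is named, and 1 laminin ID that the counts include is not reported here. The uncalled ITGB1, LAMA5, lama4, lamc1, COL4A1 and COL4A2 after injury, and the markers MFAP4 and THBS1, were named after their values were seen, and the thrombocyte sum without THBS1 was added then. Replicates are pools, so p-values measure the spread between pools. Same-pool libraries of citrine-positive and double-negative cells deviated together in all 3 pairs (r from 0.163 to 0.227), against -0.280 to 0.167 in 15 pairs from different pools. For mCherry-positive and double-negative cells r was 0.0181 to 0.368 in 4 same-pool pairs and -0.281 to 0.363 in 20 others. The ranges overlapped, and mCherry-positive pool 9 had r = 0.363 with double-negative pool 10 and 0.368 with pool 9.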

Additional observations from a re-analysis of the deposited data

Results flagged for a closer look

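Among 102 sets of 4 or 6 libraries of a sort examined for a library far from the others, 12 held one. Chance flags about 1 in 20 sets if values are normal and sets are independent. TPM is skewed and some sets share values, so the 12 are not read against that rate. The genes psd3l and FN1 were examined for their likeness to LAMB2, and inavaa for its likeness to NID2. Their flags are therefore not separate from the values of LAMB2 and NID2. A set with 1 value above 0, as for TCF21 and lamc3, is flagged whatever the size of that value. In mCherry-positive cells at 7 dpi, pool 9 was set apart in LAMB2 share of laminin beta TPM (25.6%, others 4.38% to 5.45%), in LAMB2 over lamc1 (0.340, others 0.0780 to 0.0816), in psd3l (11.69 TPM, others 4.71 to 5.52), in lamc3 (0.69 TPM, others 0) and in POSTN ENSDARG00000043806 (407 TPM, others 55.26 to 97.08). In the same sort pool 5 stood apart in NID1 ENSDARG00000068710 (42.69 TPM, others 27.2 to 29.17), pool 6 in inavaa (11.71 TPM, others 1.34 to 1.80) and pool 7 in TCF21 (0.53 TPM, others 0).

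In double-negative cells pool 6 stood apart in FN1 ENSDARG00000019815 (415.7 TPM, others 176.7 to 251.8) and in the summed mural markers (653.1 TPM, others 305.8 to 414.9). Pool 5 stood apart in inavaa (6.57 TPM, others 1.78 to 3.45), and pool 7 in the summed erythroid markers (112700 TPM, others 6322 to 45180). LAMB2 in TPM was examined too and pool 9 stayed under the limit, although it held the highest value among the mCherry-positive libraries.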

How the results depend on the processing

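The fold changes of LAMB2 and NID2 kept their direction in every alternative run, except that of NID2 in citrine-positive against mCherry-positive cells. After injury the number of genes called, 132, was 86 with a pseudocount of 5, 4 in a fit of the 2 groups alone and 83 to 207 without single libraries (83 without uninjured pool 2, 207 without pool 9 at 7 dpi). LAMB2 differed by 4.68 with a pseudocount of 0.1, by 1.20 with 5 and by 2.10 to 3.00 without single libraries. In citrine-positive against double-negative cells 1876 genes were called, 772 without pools 9 and 10 and 1250 to 1908 without single libraries, 1250 being without citrine-positive pool 9. LAMB2 passed there with median-of-ratios scaling only (1.34). With the pool as a replicate block 1645 were called, neither gene among them. In mCherry-positive against double-negative cells 2083 were called, 1332 with a replicate block and 1090 in the same pools without it. In citrine-positive against mCherry-positive cells 2268 were called, 1384 in the 2 groups alone, 1319 without pools 9 and 10 and 613 with a replicate block (190 in the same pools without it). There NID2 was at -0.58 without pools 9 and 10 and at -0.33 to 0.38 without single libraries. No pool was shared by uninjured and 7 dpi libraries, so no paired fit was possible for injury.

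Median-of-ratios scaling moved the share of higher calls to 71.3% from 60.6% (injury), 36.3% from 18.0% (citrine-positive against double-negative), 28.5% from 37.1% (mCherry-positive against double-negative) and 61.8% from 40.7% (citrine-positive against mCherry-positive). It moved the median of all genes by more than 0.1 in the last 3, to -0.03 from -0.23, to -0.25 from -0.10 and to 0.13 from -0.19. The LAMB2 share difference of 0.300 percentage points turned to -0.920 without citrine-positive pool 9 and -0.0209 without double-negative pool 8 (range -0.920 to 1.42), and the NID2 share difference turned to 0.939 without citrine-positive pool 10 (range -4.62 to 0.939). LAMB2 in citrine-positive cells was 29.63 TPM without pools 9 and 10, the value of the 1 library left, and mean NID2 in uninjured cells 6.39 with median-of-ratios scaling. The cause of these moves was not tested. With TPM alone, depth and counting error are unknown.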
